A study of Mus musculus with 14 samples.

Results

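The genes described here are a list of 26 that make cholesterol or belong to the SREBP pathway, which controls its synthesis. They were chosen by name from knowledge of the pathway, with earlier results of these data already known. Each was followed through the array feature that carries its symbol and no other. Of the 26, 23 have such a feature among 22206 features other than controls, 19572 of which carry 1 gene symbol. Srebf1, Tm7sf2 and Acat2 were not analysed here. The 23 genes were 7 of the acetyl-CoA and mevalonate steps, 10 of the squalene and sterol steps, 3 SREBP regulators and 3 other SREBP targets.

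RNA came from mouse embryonic fibroblasts (MEFs) grown on Matrigel-linked polyacrylamide hydrogels and collected 2 weeks after viral transduction, with 2 independent cultures in each of 7 groups and 1 Clariom S Mouse array for each culture. All 14 cultures received retroviral GHMT (Gata4, Hand2, Mef2c and Tbx5), the factors used to convert fibroblasts to induced cardiomyocytes. The study asked how matrix stiffness, and the mechanosensitive co-activators YAP and TAZ, bear on that conversion. GHMT/126 kPa and GHMT/8 kPa cells had GHMT alone on a stiff or a soft gel. GHMT/Scramble, GHMT/shYAP and GHMT/shTAZ cells were kept on 126 kPa gels and also received lentiviral control shRNA, shRNA against YAP or shRNA against TAZ. GHMT/YAP-5SA and GHMT/TAZ-4SA cells were kept on 8 kPa gels and also received a retroviral, constitutively active mutant of YAP or TAZ. No group without GHMT was compared here, so every difference lies between GHMT cultures, and no sort of the cells before RNA extraction is stated for the arrays. Every value is a log2 ratio that the authors made within 1 of 3 sets of arrays, to the mean of GHMT/126 kPa for the stiffness set, to the mean of GHMT/Scramble for the shRNA set, and, for the mutant set, to a reference the sources do not name. Values of different sets are therefore placed side by side and not subtracted, and no ratio shows how strongly a gene was expressed.

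Cholesterol is built from acetyl-CoA through mevalonate and farnesyl diphosphate to squalene, which is closed to lanosterol and trimmed to cholesterol. Almost every enzyme of the chain is a target of SREBP2, a transcription factor held in the endoplasmic reticulum as a precursor. When membrane sterol is low, SCAP escorts the precursor to the Golgi, where it is cut to its active form, and when sterol is high INSIG proteins hold SCAP back. Most genes of the chain therefore tend to move together in cultured cells, and fibroblasts are the cells in which much of this control was worked out. SREBP proteins bind sterol response elements, usually beside NF-Y (CCAAT box) and Sp1 (GC box) sites.

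The stretches just before the start sites of 6 genes are shown, picked by the values described below. Hmgcs1, Mvk, Idi1, Cyp51 and Insig1 were among the highest in one comparison or another. Elovl6 had the lowest difference of the 23 on the soft gel (-0.29), but the highest with shYAP (0.30). Each is the 250 bases before the gene's RefSeq start in build GRCm38.p6, read 5′ to 3′ along the gene's own strand. Positions are chr13:119690101-119690350 on the plus strand for Hmgcs1, chr5:114444019-114444268 plus for Mvk, chr13:8885356-8885605 plus for Idi1, chr5:4104698-4104947 minus for Cyp51, chr5:28071162-28071411 plus for Insig1 and chr3:129532136-129532385 plus for Elovl6. Capitals mark, on either strand, the core of a sterol response element (CACNCCAC, and TCACNCCAC, which contains it), the CCAAT box (CCAAT) and the GC box (GGGCGG).
Hmgcs1: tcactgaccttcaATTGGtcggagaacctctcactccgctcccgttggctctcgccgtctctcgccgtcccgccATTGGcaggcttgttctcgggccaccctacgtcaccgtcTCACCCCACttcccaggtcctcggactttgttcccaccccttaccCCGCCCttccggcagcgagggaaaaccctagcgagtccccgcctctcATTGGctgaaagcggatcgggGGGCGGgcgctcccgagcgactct
Mvk: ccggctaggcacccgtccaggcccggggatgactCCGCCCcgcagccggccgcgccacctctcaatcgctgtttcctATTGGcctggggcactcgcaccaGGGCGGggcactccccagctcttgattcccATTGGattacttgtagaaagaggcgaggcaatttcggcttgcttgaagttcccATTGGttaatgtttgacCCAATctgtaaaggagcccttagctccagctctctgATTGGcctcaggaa
Idi1: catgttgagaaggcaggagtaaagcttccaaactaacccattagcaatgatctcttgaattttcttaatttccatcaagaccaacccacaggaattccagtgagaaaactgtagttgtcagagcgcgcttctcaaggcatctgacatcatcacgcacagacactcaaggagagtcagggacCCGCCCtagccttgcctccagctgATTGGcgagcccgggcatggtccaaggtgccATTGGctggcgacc
Cyp51: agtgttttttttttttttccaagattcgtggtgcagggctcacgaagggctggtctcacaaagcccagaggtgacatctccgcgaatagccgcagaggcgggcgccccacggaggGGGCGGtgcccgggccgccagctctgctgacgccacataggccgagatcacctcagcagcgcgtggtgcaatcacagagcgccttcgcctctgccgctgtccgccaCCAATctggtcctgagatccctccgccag
Insig1: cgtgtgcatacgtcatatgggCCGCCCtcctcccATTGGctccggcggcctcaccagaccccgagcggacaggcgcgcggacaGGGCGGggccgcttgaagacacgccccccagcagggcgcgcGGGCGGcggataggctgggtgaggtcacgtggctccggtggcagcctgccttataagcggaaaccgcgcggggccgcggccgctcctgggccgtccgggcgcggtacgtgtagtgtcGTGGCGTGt
Elovl6: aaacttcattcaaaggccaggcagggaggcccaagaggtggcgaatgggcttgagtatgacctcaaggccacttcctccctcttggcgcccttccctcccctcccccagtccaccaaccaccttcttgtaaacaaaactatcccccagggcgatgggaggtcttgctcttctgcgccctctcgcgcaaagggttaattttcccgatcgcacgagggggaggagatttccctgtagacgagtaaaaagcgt

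The window of Hmgcs1 held a sterol element from 137 to 129 bases before the start, with 3 CCAAT boxes and 2 GC boxes. In Insig1 the core lay from 9 to 2 bases before the start, with 1 CCAAT box and 3 GC boxes farther from the start. Mvk had 5 CCAAT boxes and 2 GC boxes, Idi1 had 2 and 1, and Cyp51 had 1 of each, without the core in this window. No search motif was found in the Elovl6 window. Hsd17b7, which like Elovl6 was lower on the soft gel without overlap, had both CCAAT and GC boxes in its window. Windows were at hand for 19 of the 23 genes. CCAAT was present in 15 of the 19 (78.9%) against 39.2% of 15691 array genes with a window, and GGGCGG in 16 (84.2%) against 47.7%. The sterol element core was present in 2 of 19 (10.5%) against 6.15%, and the longer form in 1 (5.26%) against 1.22%. A match of letters describes the sequence and does not show that a factor binds it.

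**Figure D1:**
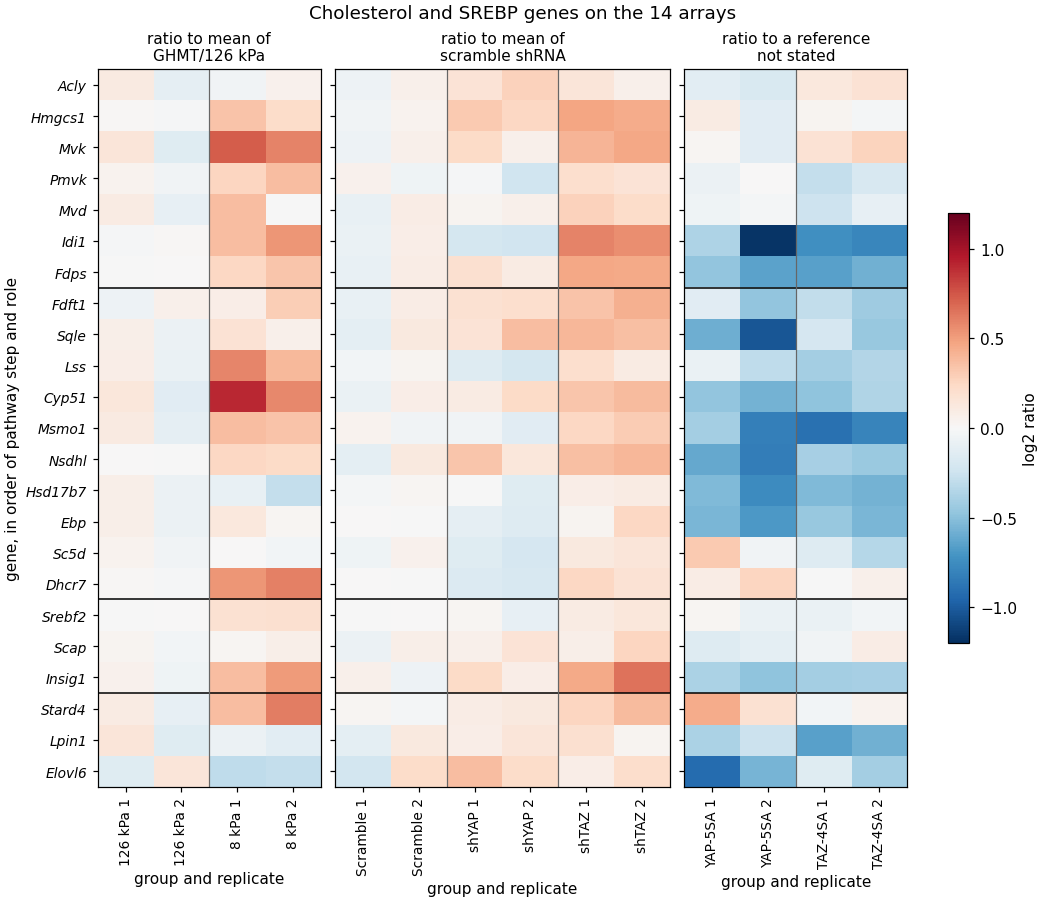
Log2 ratio (colour) of the 23 genes (rows, in pathway order, with lines between roles) on each of the 14 arrays (columns, by group and replicate), in the 3 sets with their own references. Both 8 kPa arrays and both shTAZ arrays are mostly red, the shYAP arrays are mixed, and the mutant arrays are mostly blue for the sterol steps, with the lowest value of the plot, -1.18, for Idi1 of the mevalonate steps on the second YAP-5SA array.

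On the soft gel, most genes of the chain lay above their level on the stiff gel, by amounts that did not pass the limma test after adjustment over all features. The gene medians of the 8 kPa arrays were 0.25 and 0.23, against 0.05 and -0.05 on the 126 kPa arrays. Of the 23 genes, 19 had a difference above 0 and 4 below, where 55.7% and 44.3% of all features did, and the median difference was 0.24 against 0.03 over all features. None of the 23 passed the limma test at an adjusted p of 0.05 (Benjamini-Hochberg over all 22206 features), which 0.0721% of all features did, all 16 of them lower on 8 kPa. At an unadjusted p under 0.05, 7 of the 23 were higher and 0 lower, where 5.95% and 4.69% of all features were. The lower of the 2 arrays on 8 kPa exceeded the higher one on 126 kPa for 14 genes (24.3% of features), and the reverse held for 2 (17.8%). No gene reached a 2-fold difference, which 1.13% of features did.

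Within the mevalonate steps, all 7 genes had a difference above 0 (55.7% of all features), with a median of 0.29. Mvk, mevalonate kinase, was at 0.73 and 0.60 on the 8 kPa arrays and at 0.14 and -0.14 on the 126 kPa arrays. That is a difference of 0.66 (1.58-fold, SE 0.17, adjusted p = 0.312), with no overlap between the groups. Idi1, which isomerises isopentenyl diphosphate, was at 0.37 and 0.53 against -0.02 and 0.02, a difference of 0.45 (SE 0.14, adjusted p = 0.394). Pmvk and Fdps, the kinase after Mvk and the synthase of farnesyl diphosphate, differed by 0.31 and 0.29, and Hmgcs1, the HMG-CoA synthase that opens the pathway, by 0.28, each without overlap. Mvd, the decarboxylase of this branch, was at 0.37 on the first 8 kPa array and at -0.00088 on the second, so its groups overlapped. Acly, which supplies cytosolic acetyl-CoA from citrate, was the lowest of the branch, at 0.01 (SE 0.15).

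The squalene and sterol steps were less even, with 8 of 10 differences above 0 (55.7% of all features) and a median of 0.21. Cyp51, which demethylates lanosterol, had the largest difference of the 23 genes, with 0.90 and 0.58 on 8 kPa and 0.13 and -0.13 on 126 kPa. The difference was 0.74 (1.67-fold, SE 0.19, adjusted p = 0.312). Dhcr7, which makes the last reduction to cholesterol, was at 0.53 and 0.61 against 0.02 and -0.02, a difference of 0.57 (SE 0.14) and the lowest adjusted p of the 23 genes, 0.297. Its 2 arrays lay close together in both groups. Lss, the cyclase that forms lanosterol, followed at 0.49 (SE 0.15, adjusted p = 0.394), from 0.58 and 0.39 against 0.08 and -0.08. Msmo1, Nsdhl and Fdft1, a methylsterol oxidase, a sterol dehydrogenase and squalene synthase, differed by 0.35, 0.24 and 0.19 without overlap. Sqle, squalene epoxidase, and Ebp, a sterol isomerase, had overlapping groups at 0.12 and 0.08, as did the desaturase gene Sc5d at -0.02. Hsd17b7, a sterol ketone reductase, lay the other way, at -0.09 and -0.28 on 8 kPa, both below the 126 kPa arrays at 0.07 and -0.07.

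Among the regulators, Insig1 was the highest, with 0.37 and 0.51 on 8 kPa against 0.05 and -0.05, a difference of 0.44 (SE 0.14, adjusted p = 0.402). INSIG1 is both the brake on SREBP processing and itself a SREBP target. Srebf2, the gene of SREBP2, differed by 0.19 with no overlap and Scap by 0.05 with overlap. Stard4, a sterol carrier induced by SREBP2, was at 0.37 and 0.61 against 0.09 and -0.09, a difference of 0.49 (SE 0.16, adjusted p = 0.412). Elovl6, a fatty acid elongase, was at -0.30 and -0.29 against -0.14 and 0.14, and Lpin1, a phosphatidate phosphatase, had a difference of -0.10 with overlap, and neither had an unadjusted p under 0.05. With 1 array left out, the number of differences above 0 was 18 to 21. Fewer genes were higher at an unadjusted p under 0.05 in each such fit than with all arrays. The share of all features at that level was not counted there. In a single fit to all 14 arrays, Dhcr7, Cyp51 and Mvk passed, with adjusted p of 0.0305, 0.0323 and 0.0364, while 342 of all features passed.

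**Figure D2:**
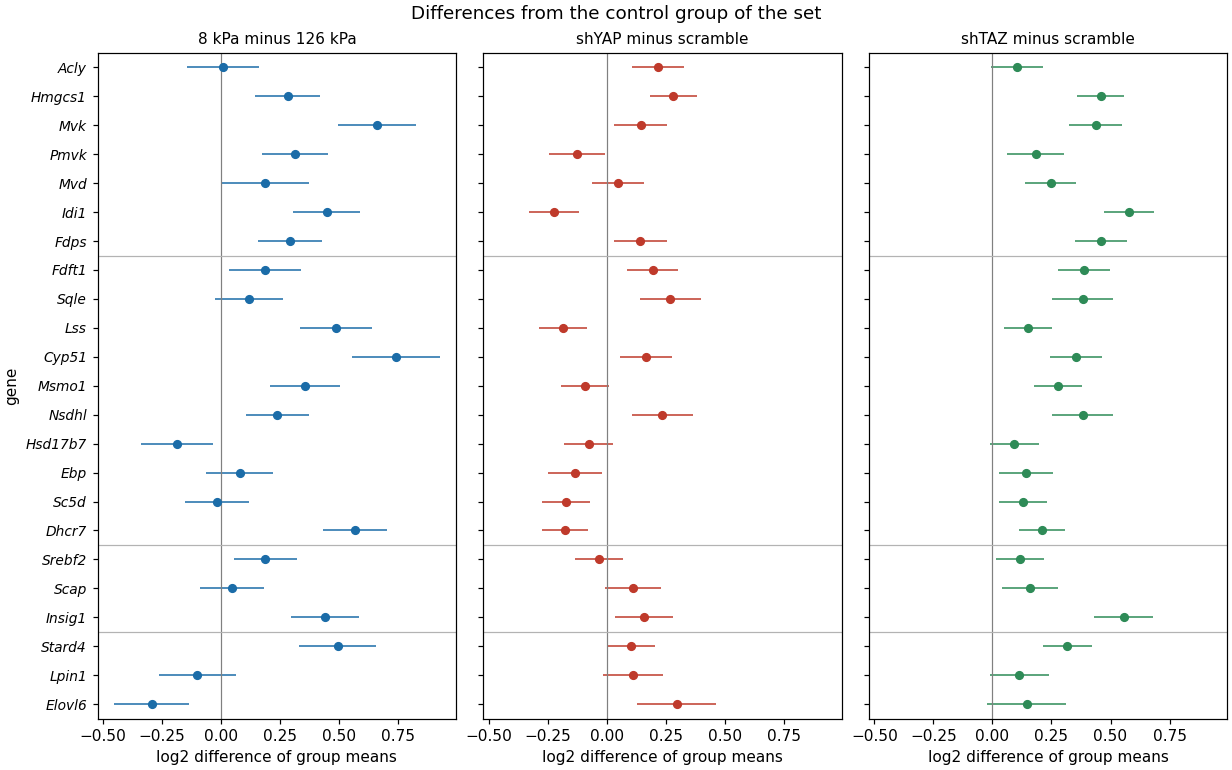
Difference of group means in log2 (x axis) for each of the 23 genes (y axis) for 8 kPa minus 126 kPa, shYAP minus scramble and shTAZ minus scramble; points are differences of 2 against 2 arrays and bars are plus and minus 1 SE from limma. All 23 points lie above 0 for shTAZ and 19 for 8 kPa, whereas shYAP has 14 above and 9 below.

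With shTAZ, all 23 genes lay above the mean of the scramble arrays, or 21 to 23 with an array left out, where Lpin1 and Elovl6 were below without scramble replicate 1. In the targeted genes themselves, Yap1 fell with shYAP by 0.88 (SE 0.12, adjusted p = 0.0498), with both shYAP arrays (-0.89 and -0.88) below the scramble arrays (-0.11 and 0.11). Wwtr1, which encodes TAZ, was at -0.36 and -0.31 with shTAZ against -0.25 and 0.25. The difference of -0.34 (SE 0.17) did not pass (limma adjusted p = 0.43). The paper reports from qRT-PCR and western blotting that each shRNA lowered its target, and those data were not analysed here. The Yap1 call is close to the threshold, as its adjusted p was 0.0502 without scramble replicate 1 and 0.304 and 0.268 without shYAP replicates 1 and 2. For Wwtr1 the spread between the scramble arrays exceeded the difference. The shYAP and shTAZ comparisons share these 2 scramble arrays, whose medians for the 23 genes were -0.06 and 0.06.

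For shTAZ minus scramble, the median of the 23 differences was 0.25 against 0.04 over all features, and 59% of all features had a difference above 0 and 41% below. None of the 23 genes passed the limma test, and 0% of the 22122 features did. At an unadjusted p under 0.05, 11 were higher and 0 lower (8.68% and 5.71% of features). Both shTAZ arrays exceeded both scramble arrays for 19 genes (28.6% of features), and for 0 genes were both below (17.9%). None differed 2-fold, as 2.21% of features did.

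The mevalonate steps again led, with a median difference of 0.44. Idi1 was at 0.60 and 0.56 with shTAZ and at -0.08 and 0.08 with scramble, a difference of 0.58 (1.49-fold, SE 0.11, adjusted p = 0.124). Without scramble replicate 2 its difference was 0.66 and passed (adjusted p = 0.0264), where 7.38% of all features passed against 0% with all arrays, and it was the only such case among the 23 genes with an array left out. Hmgcs1 was at 0.47 and 0.44 against -0.04 and 0.04, and Fdps at 0.47 and 0.45 against -0.09 and 0.09. Both differed by 0.46, with SE 0.10 and 0.11 and adjusted p of 0.152 and 0.169. Mvk followed at 0.44 (SE 0.11, adjusted p = 0.189), Mvd at 0.25 and Pmvk at 0.18, whereas the groups of Acly overlapped at 0.10.

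All 10 sterol-step genes had both shTAZ arrays above both scramble arrays, as 28.6% of all features did. Their median difference was 0.24, against 0.04 over all features. Fdft1 was at 0.34 and 0.43 against -0.08 and 0.08 (difference 0.39, SE 0.11, adjusted p = 0.214), and Sqle at 0.40 and 0.36 against -0.12 and 0.12 (0.38, SE 0.13, adjusted p = 0.281). Nsdhl, Cyp51 and Msmo1 followed at 0.38, 0.35 and 0.28. Dhcr7 and Lss, which were among the highest on the soft gel, were at 0.21 and 0.15 here, and Ebp, Sc5d and Hsd17b7 at 0.14, 0.13 and 0.09. Insig1 was at 0.46 and 0.65 against 0.07 and -0.07, a difference of 0.56 (SE 0.12, adjusted p = 0.157), which passed in the 14-array fit (adjusted p = 0.049). Stard4 differed by 0.32 (SE 0.10, adjusted p = 0.26), Scap by 0.16 and Srebf2 by 0.12. Lpin1 and Elovl6 overlapped between the groups, at 0.11 and 0.14. Without either shTAZ array, fewer genes were higher at an unadjusted p under 0.05 than with all arrays. The share of all features at that level was not counted there.

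The soft gel and shTAZ comparisons share no array. In both, 14 of the 23 genes were separately higher in the treated group (60.9%), against 8.43% of 22122 features, and 19 had a difference above 0 in both (82.6%), against 34.9%. The 14 were Hmgcs1, Mvk, Pmvk, Idi1, Fdps, Fdft1, Lss, Cyp51, Msmo1, Nsdhl, Dhcr7, Srebf2, Insig1 and Stard4. Across the 23 genes the differences had a Pearson r of 0.57 and a Spearman rho of 0.61, against 0.28 and 0.13 across all features. These are descriptions across genes, which are not independent replicates and which share the same 4 arrays within each comparison. For the soft gel and shYAP, 7 of the 23 were higher without overlap in both (8.08% of features), and 12 had a difference above 0 in both (52.2%), against 33.6% of features. The r was -0.16 and the rho -0.22 across the 23 genes, against 0.17 and 0.06 across all features.

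With shYAP, genes of the chain lay on both sides of scramble. The median of the 23 differences from scramble was 0.11 against 0.05 over all features, 14 were above 0 and 9 below (58.5% and 41.5% of features), and without scramble replicate 1 the median was 0.04. None passed, where 0.533% of features did. At an unadjusted p under 0.05 there was 1 higher gene and 0 lower (11.4% and 7.39% of features), and the groups were apart for 9 higher and 6 lower genes (31% and 19.6%). No gene differed 2-fold (2.46% of features). Hmgcs1 was that 1 gene, at 0.32 and 0.25 against -0.04 and 0.04, a difference of 0.28 (SE 0.10, adjusted p = 0.219). With 1 array left out, the number of genes at an unadjusted p under 0.05 rose or fell with the array. The share of all features at that level was not counted there. The number of differences above 0 was 12 to 15.

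Sqle at 0.27, Nsdhl at 0.24, Acly at 0.22, Fdft1 at 0.19, Cyp51 at 0.17, Insig1 at 0.16, Fdps at 0.14 and Stard4 at 0.10 were the other genes with both shYAP arrays above both scramble arrays. Those with both below were Idi1 at -0.22, Lss and Dhcr7 at -0.18, Sc5d at -0.17, Ebp at -0.13 and Msmo1 at -0.09. The lower genes included 5 of the 10 sterol steps, and the higher genes 4, where 19.6% and 31% of all features were apart in these directions. Elovl6 had the largest difference of the 23, 0.30 (SE 0.17), but its second shYAP array, at 0.22, lay at the level of its second scramble array, and the groups overlapped.

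**Figure D3:**
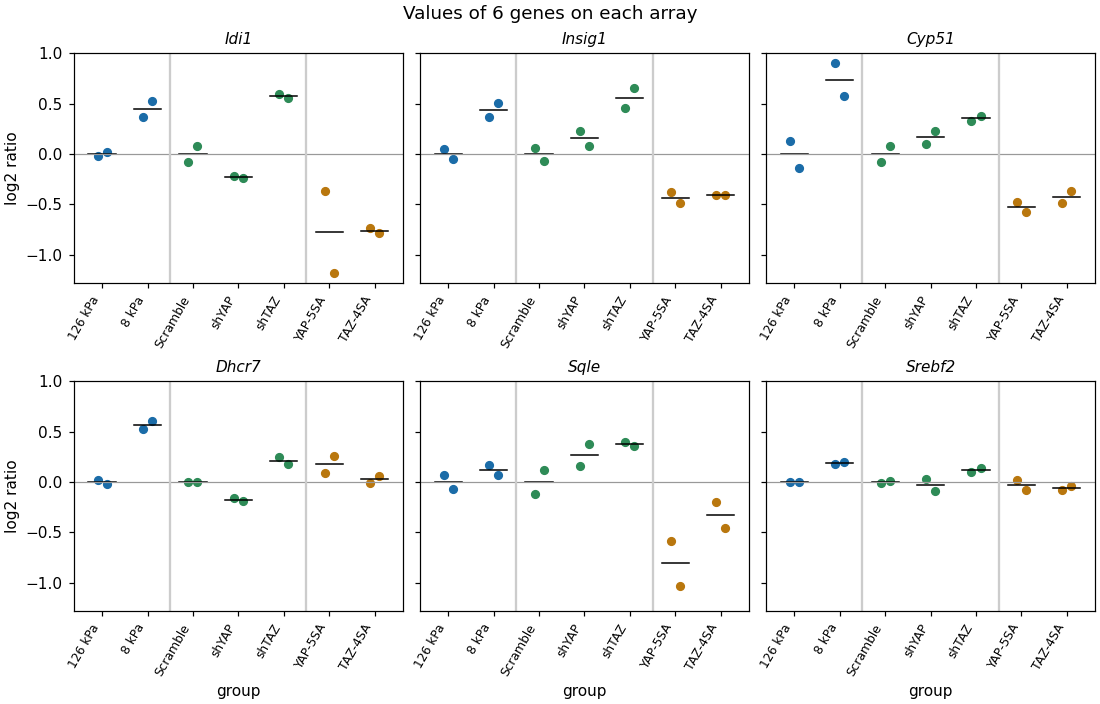
Log2 ratio (y axis) of Idi1, Insig1, Cyp51, Dhcr7, Sqle and Srebf2 on each array (points) by group (x axis), with the mean of each group as a bar and grey lines between the sets, whose references differ. Idi1 is below 0 in both shYAP arrays (-0.21 and -0.23) and above 0 in both shTAZ arrays (0.60 and 0.56), while Sqle is above 0 in all 4.

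Set directly against shTAZ, shYAP gave lower values for 21 of the 23 genes and higher values for 2 (46.9% and 53.1% of features). These differences use no scramble array, but the SEs and p-values come from a limma fit that includes the scramble arrays. The median difference was -0.20 against 0.01 over all features. None passed the limma test, where 0.0452% of features did, and none differed 2-fold, where 0.542% did. At an unadjusted p under 0.05, 9 were lower and 0 higher (4.17% and 3.93% of features), and for 18 genes both shYAP arrays lay below both shTAZ arrays, with the reverse for 2 (20.6% and 23.6%). The count of 9 was lower with any shYAP or shTAZ array left out, and the share of all features was not counted there. The number of differences above 0 was then 2 to 3.

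Idi1 differed most, by -0.80 (0.57-fold, SE 0.11). Its unadjusted p was 0.000213 and its adjusted p 0.135. Next came Insig1 at -0.40 (SE 0.12, adjusted p = 0.525), Dhcr7 at -0.39 (SE 0.10, adjusted p = 0.429) and Msmo1 at -0.37 (SE 0.10, adjusted p = 0.476). Dhcr7 was at -0.16 and -0.19 with shYAP and at 0.25 and 0.18 with shTAZ, and Msmo1 at -0.05 and -0.14 against 0.25 and 0.30. Lss, Fdps, Pmvk, Sc5d and Mvk lay between -0.33 and -0.29. The smallest gaps of the sterol steps were those of Nsdhl at -0.15 and Sqle at -0.11, and only Sqle overlapped. The 2 genes that were higher with shYAP were Acly at 0.11 and Elovl6 at 0.15, whose products also serve fatty acid synthesis. Of 9 other fatty acid synthesis genes under SREBP, 6 were lower with shYAP than with shTAZ and 3 higher (46.9% and 53.1% of features). Their median difference was -0.096. For Pmvk, Idi1, Lss, Msmo1, Hsd17b7, Ebp, Sc5d and Dhcr7, both shYAP arrays lay below the scramble mean and both shTAZ arrays above it, 8 of 23 genes where 4.35% of features did so. The opposite arrangement was found for 0 genes and 3.58% of features. For Pmvk and Hsd17b7 the first shYAP array, at -0.011 and -0.0050, lay between the 2 scramble arrays.

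**Figure D4:**
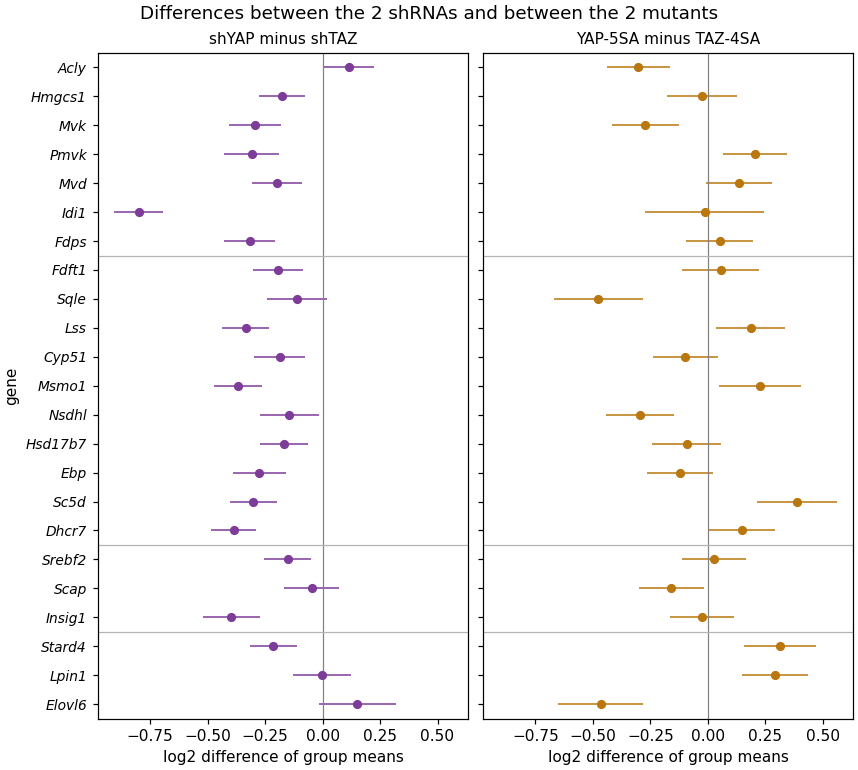
Difference of group means in log2 (x axis) for the 23 genes (y axis), for shYAP minus shTAZ and YAP-5SA minus TAZ-4SA; points are differences of 2 against 2 arrays and bars are plus and minus 1 SE from limma. For the shRNAs 21 of 23 points lie below 0, with Idi1 at -0.80, and for the mutants 11 lie above and 12 below.

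In the cells with active YAP or TAZ on the soft gel, most of the genes lay below the reference of that set, whatever it is. The gene medians of the arrays were -0.16 and -0.31 with YAP-5SA and -0.29 and -0.36 with TAZ-4SA, whereas the medians of all features lay between 0.02 and 0.04. In all 4 arrays, 14 of 23 genes were below it (60.9%) and 0 above, against 20.6% and 26.8% of 22127 features. The sterol steps made up 8 of the 14, out of 10. As the reference is not stated, it cannot be told whether these values are changes from the soft gel with GHMT alone, and no test was made of them.

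Msmo1 was at -0.41 and -0.82 with YAP-5SA and at -0.89 and -0.79 with TAZ-4SA. Idi1 was at -0.37 and -1.18, and at -0.73 and -0.79, the widest spread between 2 arrays of a group among the 23 genes. Hsd17b7, which was among the lowest genes on the soft gel, was at -0.53 and -0.75, and at -0.53 and -0.57. Fdps, Nsdhl, Ebp and Cyp51 were at -0.36 or lower in each of the 4 arrays, and Insig1 lay between -0.48 and -0.38. Fdft1, Lss, Sqle, Mvd, Lpin1 and Elovl6 were also below in all 4. The exceptions in the chain were Dhcr7, at 0.09 and 0.26 with YAP-5SA and -0.01 and 0.06 with TAZ-4SA, and Sc5d, Mvk, Hmgcs1, Pmvk and Acly, which had at least 1 array on or above the reference. Srebf2 stayed between -0.08 and 0.02, and Scap between -0.16 and 0.09. Stard4 was at 0.45 and 0.18 with YAP-5SA and at -0.04 and 0.04 with TAZ-4SA.

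**Figure D5:**
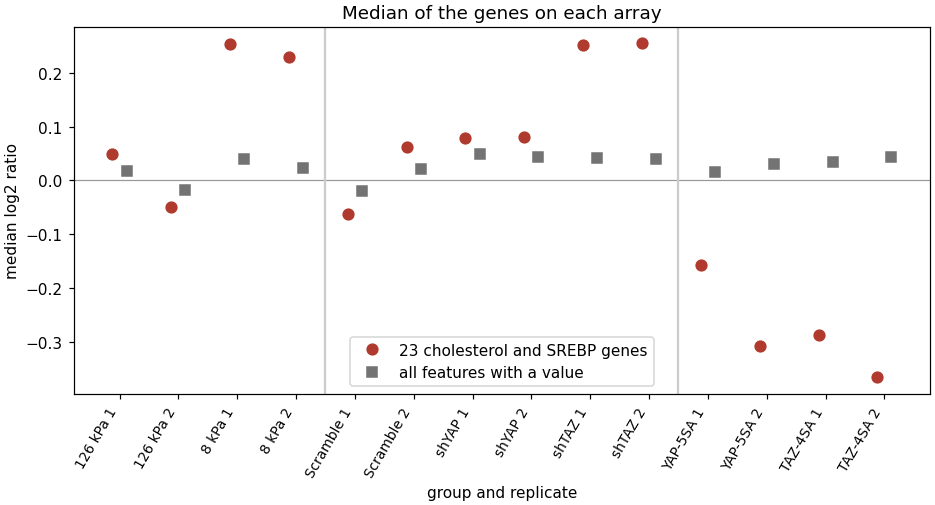
Median log2 ratio (y axis) of the 23 genes (circles) and of all features with a value (squares) on each array (x axis), with grey lines between the 3 sets. The 23 genes are at 0.25 and 0.23 on 8 kPa and 0.25 on both shTAZ arrays, and between -0.36 and -0.16 on the mutant arrays, while all features stay near 0.

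Between the mutants themselves the 23 genes were divided, with 11 higher and 12 lower in YAP-5SA (48.5% and 51.5% of features) and a median difference of -0.01 against -0.0086 over all features. The median was 0.0067 without TAZ-4SA replicate 1, -0.12 without YAP-5SA replicate 1 and 0.077 without YAP-5SA replicate 2. None passed, where 0.895% of features did, or differed 2-fold (1.41%). At an unadjusted p under 0.05, 2 were lower and 0 higher (7% and 6.55% of features), and 7 were apart in each direction (21.8% higher and 23.9% lower among features). The 2 were Sqle, at -0.58 and -1.03 against -0.20 and -0.46 (difference -0.48, SE 0.19, adjusted p = 0.357), and Elovl6, at -0.93 and -0.55 against -0.14 and -0.41 (-0.47, SE 0.19, adjusted p = 0.345). Sc5d lay the other way at 0.39 (SE 0.17), as did Stard4 at 0.31, Lpin1 at 0.29 and Pmvk at 0.21. The counts at an unadjusted p under 0.05 moved with the array left out, and the share of all features was not counted there. The number of differences above 0 was then 8 to 15.

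Other genes of sterol and lipid metabolism were read from 4 lists. In the list of other sterol and isoprenoid genes, of which 6 of 8 were measured, none passed in any comparison. Aacs, which activates acetoacetate for sterol synthesis, differed by 0.51 on the soft gel (SE 0.17, adjusted p = 0.415). Tmem97, an endoplasmic reticulum protein, had differences of 0.20 on the soft gel, 0.31 with shTAZ and -0.39 for shYAP minus shTAZ (SE 0.13, adjusted p = 0.551). Insig2, the companion of Insig1, was at -0.53 and -0.21 with shYAP and at -0.01 and 0.07 with shTAZ. It was 0.90 higher with YAP-5SA than with TAZ-4SA (SE 0.18, limma adjusted p = 0.0929), or 0.71 to 1.09 higher with an array left out.

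Of the fatty acid synthesis genes under SREBP, 9 of 11 were measured and none passed in any comparison. All 9 lay above the scramble mean with shTAZ (59% of all features), with a median of 0.26. They were led by Gpam at 0.57 and Fasn, the fatty acid synthase, at 0.49 (SE 0.11, limma adjusted p = 0.158). The scramble arrays themselves differed, with all 9 genes below 0 on the first (median -0.07) and above 0 on the second (0.07). With shYAP 8 of 9 were above the scramble mean (58.5% of all features), with a median of 0.28. Gpam, which starts glycerolipid synthesis, was at 0.86 and 0.78 against -0.19 and 0.19 (difference 0.82, SE 0.15, limma adjusted p = 0.09). Without scramble replicate 2, Gpam passed with both shRNAs, at 1.01 (adjusted p = 0.00882) with shYAP and 0.76 (0.0251) with shTAZ, in fits where 8.76% and 7.38% of all features passed. On the soft gel the median was 0.12, with Me1 at 0.31 the highest. Scd1, the stearoyl-CoA desaturase, was at -1.52 and -2.00 with YAP-5SA and -1.25 and -1.35 with TAZ-4SA relative to the unstated reference. Between the mutants, Fads2, a desaturase, differed by -0.65 (SE 0.15, adjusted p = 0.128) and Me1, malic enzyme, by 0.59 (SE 0.15, adjusted p = 0.156). Without YAP-5SA replicate 1, Fads2 passed at -0.75 (adjusted p = 0.0498), in a fit where 3.98% of all features did.

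Of the sterol efflux and LXR genes, 5 of 6 were measured and none passed in any comparison. LXR receptors respond to high sterol by inducing the exporters Abca1 and Abcg1. On the soft gel 4 of 5 were below the stiff gel without overlap, where 17.8% of features were, with a median of -0.29, and Abcg1 was at -0.55 and -0.34 against -0.06 and 0.06 (difference -0.44, SE 0.15, adjusted p = 0.417). The exception was Nr1h3, which encodes an LXR, at 0.40. Abca1 was at -0.70 and -0.58 with shYAP and at -0.58 and -0.49 with shTAZ, below scramble at 0.20 and -0.20, with adjusted p of 0.128 and 0.217. Against the unstated reference of the mutant arrays, 2 of the 5 were below and 2 above in all 4 arrays, with Abca1 between 0.68 and 0.89 and Abcg1 between -1.53 and -1.04. Among 8 of 9 measured genes of sterol storage, transport and oxysterols, Ch25h was the 1 gene of the 4 lists that passed in any comparison. Ch25h, which makes an oxysterol that blocks SREBP processing, was 1.23 higher with YAP-5SA (-0.07 and 0.04) than with TAZ-4SA (-1.15 and -1.33), with SE 0.15 and adjusted p of 0.0269, or 0.0617 without TAZ-4SA replicate 2. With shYAP it was at -1.33 and -1.30 against 0.38 and -0.38, a difference of -1.32 that did not pass (SE 0.24, adjusted p = 0.0866). Vldlr, a lipoprotein receptor, was 0.62 above scramble with shYAP (SE 0.10, adjusted p = 0.0767), and Lipa, the lysosomal lipase, differed by -0.81 with shYAP and -0.91 with shTAZ. Without scramble replicate 2, the array with the lower macrophage markers, these shYAP values passed, in a fit where 8.76% of all features did against 0.533% with all arrays: Ch25h at -1.70, Lipa at -1.39, Abca1 at -0.84 and Vldlr at 0.57. With shTAZ, Lipa at -1.48 and Abca1 at -0.74 passed (7.38% of features). Without scramble replicate 1, Lipa was at -0.24 with shYAP and -0.34 with shTAZ.

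Marker genes of other cell types were read in the same comparisons. The median of 19 macrophage and leukocyte markers, of 20 listed, was -1.35 and -1.50 on the 8 kPa arrays and 0.08 and -0.08 on the 126 kPa arrays. In the shRNA set it was 1.15 and -1.15 with scramble, -2.24 and -3.63 with shYAP, and -4.89 and -4.67 with shTAZ. It lay between -2.78 and -0.99 on the mutant arrays. Past the limma test were 4 of the 19 on the soft gel, all lower (0.0721% of features passed), and 0 with shYAP or shTAZ (0.533% and 0%). With these shRNAs 17 and 19 were lower at an unadjusted p under 0.05 (7.39% and 5.71% of features). The 2 scramble arrays thus differed widely in these markers. Their medians for the cholesterol genes were -0.06 and 0.06. On the first, 17 of the 23 cholesterol genes were below 0 (73.9%), against 57.2% of all features. The median of 7 cardiomyocyte markers was 0.02 and -0.06 on 8 kPa, 1.35 and 1.07 with shYAP, 0.86 and 0.97 with shTAZ, and between -2.83 and -1.07 on the mutant arrays. With shYAP 5 of the 7 passed as higher and 1 as lower (0.533% of features passed), and on the soft gel 0 passed (0.0721%). With shTAZ 0 passed, as did 0% of features. At an unadjusted p under 0.05, 6 of the 7 were higher with shTAZ and 1 lower (8.68% and 5.71% of features). Between the mutants, 4 passed as lower with YAP-5SA than with TAZ-4SA (0.895% of features passed). Of 6 fibroblast markers, the medians ranged from -0.22 on 8 kPa to 0.61 with TAZ-4SA, and of 6 adipocyte markers from -0.27 with TAZ-4SA to 0.44 with shYAP. No fibroblast marker passed in any comparison, and 1 adipocyte marker did, between the mutants, where 0.895% of features did. The part of these marker genes was read only as follows. What share the marked cell types had in the values of the cholesterol genes was not tested. Ratios show neither whether a marker was at background nor whether the cells were fibroblasts as labelled, and in RNA from whole cultures fewer cells of a type cannot be told apart from less RNA per cell.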

How the data were processed

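RNA of 14 cultures (2 for each of 7 groups) was labelled with biotin and hybridised to Clariom S Mouse arrays. The submitters' processing notes name Affymetrix Expression Console 1.4. The deposited values are log2 ratios that the authors made separately in 3 sets of arrays, for which the 2 arrays of GHMT/126 kPa and the 2 of GHMT/Scramble sum to 0, and the reference of the mutant set is not stated. They carry no signal level, so dim features could not be filtered out and signal over background was not analysed here. The ratios were used as deposited. Gene symbols came from the platform annotation, and features with several symbols or none were not named.

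Within each set, limma 3.58.1 (R 4.3.3) was fitted to all features with a value in every array (22206 in the stiffness set, 22122 in the shRNA set, 22127 in the mutant set), with no covariate and Benjamini-Hochberg adjustment over those features. The 5 comparisons used an adjusted p under 0.05. SEs are moderated, n is 2 in each group, and precision is limited by the number of arrays. The scripts were tested on simulated data. Differences are between group means, and groups are apart where their arrays do not overlap. The genes and lists were chosen with earlier results of these data known. All measured genes of the list were named, and, from the wider lists, genes among the 3 largest differences of a list in a comparison and any that passed. Alternatives were centring each array on its median, leaving out each array, the replicate number as a block, robust moderation, all features with 2 values in each group compared, only the 4 arrays compared, and 1 fit to all 14 arrays. Promoter windows are RefSeq sequences of GRCm38.p6.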

Additional observations from a re-analysis of the deposited data

Results flagged for a closer look

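For 10 genes, shYAP and shTAZ lay on opposite sides of the scramble mean in all 4 arrays, below it with shYAP and above it with shTAZ. The log2 difference of shYAP minus shTAZ was -0.80 for Idi1, -0.39 for Dhcr7, -0.37 for Msmo1, -0.33 for Lss, -0.31 for Pmvk, -0.30 for Sc5d, -0.27 for Ebp and -0.17 for Hsd17b7. From the wider lists, Tmem97 was at -0.39 and Scd1 at -0.29. None of these differences passed the limma test, the lowest adjusted p being 0.135 for Idi1, and 4.35% of all features showed the same arrangement. The side of 0 depends on the mean of the 2 scramble arrays, whereas the difference itself does not use them. For Pmvk and Hsd17b7 the first shYAP array lay between the 2 scramble arrays.

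Ch25h differed between the mutants by 1.23 (higher with YAP-5SA, SE 0.15, limma adjusted p = 0.0269), the 1 tested difference of the cholesterol genes and the wider sterol and lipid lists that passed.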

How the results depend on the processing

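The 115 differences of the 23 genes were recomputed 1104 times, of which 1073 kept their direction and side of the threshold, 5 passed that had not, and 26 turned in direction, from 18 differences. The genes past the test numbered 3 on the soft gel and 1 with shTAZ in the 14-array fit, and 0 to 1 with shTAZ with an array left out. Medians with an array left out ranged from 0.23 to 0.28 on the soft gel, 0.041 to 0.13 with shYAP, 0.24 to 0.29 with shTAZ, -0.24 to -0.17 for shYAP minus shTAZ and -0.12 to 0.077 for the mutants, where the direction turned. With arrays centred on their medians, the median of shYAP minus shTAZ was -0.20 and that of the mutants 0.0029, as was the difference of Idi1 between the mutants. Centring also turned Acly on the soft gel to -0.024.

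The other turns came from leaving out 1 array. On the soft gel Acly ranged from -0.10 to 0.12, Mvd from -0.00088 to 0.37, Sc5d from -0.057 to 0.024 and Lpin1 from -0.25 to 0.046. With shYAP, Mvd ranged from -0.039 to 0.13, Srebf2 from -0.095 to 0.028 and Lpin1 from -0.0052 to 0.23. With shTAZ, Lpin1 ranged from -0.0022 to 0.23 and Elovl6 from -0.080 to 0.37. For shYAP minus shTAZ, Scap ranged from -0.14 to 0.046 and Lpin1 from -0.086 to 0.080. Between the mutants, Hmgcs1 ranged from -0.14 to 0.094, Idi1 from -0.42 to 0.39, Fdps from -0.033 to 0.14, Fdft1 from -0.12 to 0.23, Hsd17b7 from -0.21 to 0.020, Srebf2 from -0.020 to 0.077 and Insig1 from -0.077 to 0.025. The cause was not tested. An array left alone in its group was assumed to vary like the other groups.

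The labels give replicate numbers and nothing that pairs cultures. With the replicate number as a block, 0 of the 23 genes passed in any comparison, and the medians are the same by construction (0.24, 0.11, 0.25, -0.20 and -0.01). Of the other genes recomputed, the block ended the call of Yap1 with shYAP (adjusted p = 0.0887), as did a fit to its 4 arrays alone (0.151), and brought Insig2 between the mutants past the test (0.0482). In the 14-array fit Gpam, Abca1, Ch25h and Vldlr with shYAP and Insig2, Fads2 and Me1 between the mutants passed. Correlations of deviations between same-numbered arrays were 0.0503 for stiffness, 0.202, -0.0231 and -0.000745 among the shRNA groups and 0.148 for the mutants. The block took the features called from 16 to 0 on the soft gel, 118 to 31 with shYAP, 10 to 1 between the shRNAs and 198 to 294 between the mutants. In the 14-array fit they were 342, 568, 40 and 547, and 392 with shTAZ.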
